A study of Homo sapiens with 6 samples.

Results

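The genes described here encode the core machinery that releases RNA polymerase II into productive elongation, together with the noncoding RNA that holds part of that machinery in reserve. They were chosen by gene symbol: CDK9, CCNT1 and CCNT2 (P-TEFb), HEXIM1 and RN7SK (the 7SK complex), CDK12, CDK13 and CCNK (the CDK12 and CDK13 kinases and their cyclin), SUPT5H (DSIF) and SUPT6H. All 10 were found among the 21301 genes of the deposited table, and all 10 passed the filter on low counts. SH-SY5Y cells, a human neuroblastoma line, received siControl or siPSF at 10 nM, and RNA was sequenced after 72 h. PSF, encoded by SFPQ, is a nuclear RNA-binding protein that also takes part in transcription and splicing. Each group held 3 libraries, described by the study as biological triplicates, and the silenced group rests on a single siRNA (siPSF #2) in 1 cell line. No other agent or genotype separated the groups.

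The siControl libraries held 119019293 to 132420931 counts and the siPSF libraries 101540520 to 120627283. Levels are given as CPM, the counts scaled to a common library size, after TMM scaling for library composition. SFPQ itself, on chromosome 1 of GRCh38 from 35176380 to 35193145, was at 372, 356 and 401 CPM in siControl and 209, 193 and 165 CPM in siPSF, which is 50.2% of the siControl level. As a check of the cell line, all 10 markers of adrenergic neuroblastoma (among them PHOX2A, HAND2, GATA3, GATA2, ISL1, DBH, CHGA, STMN2 and ELAVL4) were present, with group means from 198 to 1738 CPM, although 1 of them (GATA3, log2 fold change 0.30) was called higher and 2 (DBH, -0.68, and ELAVL4, -0.46) lower after silencing. GATA3 lost the call in each of the 6 fits that left out 1 library, with library totals alone and in both limma fits, and ELAVL4 lost it without siControl replicate 3 and without siPSF replicate 2. Of 6 markers of other cell types, EPCAM and COL1A1 were listed at group means of 2.06 and 2.21 CPM in siControl and 3.73 and 3.24 CPM in siPSF. EPCAM was called higher in siPSF, though not without siControl replicate 3, and PTPRC, PECAM1, GFAP and MBP had no row in the table. The part of these markers in the results was not tested, and in bulk RNA fewer cells of a type and less RNA per cell cannot be told apart.

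RNA polymerase II pauses a short way into most genes, held by the factors DSIF and NELF. P-TEFb, made of the kinase CDK9 and a T-type cyclin, phosphorylates these factors and the tail of the polymerase, and the pause ends. Much of the P-TEFb in a cell is kept inactive by HEXIM1 bound to 7SK, a short RNA made by RNA polymerase III. CDK12 and CDK13, each with cyclin K, phosphorylate the polymerase tail further along the gene, and SPT6 is a histone chaperone that travels with the polymerase.

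7SK is the only member that passed the test, so its 5′ end is shown. RN7SK (gene ID 125050) is an RNA of 1 exon on chromosome 6 of GRCh38, from 52995620 to 52995951 on the plus strand. No other annotated gene overlaps it, apart from any entry named 7SK, which was left out of the search. The first 110 bases of its GENCODE transcript, at chr6:52995621-52995730, hold the hairpin that HEXIM1 binds, with the GATC repeats (GAUC in the RNA) in capitals.
RN7SK: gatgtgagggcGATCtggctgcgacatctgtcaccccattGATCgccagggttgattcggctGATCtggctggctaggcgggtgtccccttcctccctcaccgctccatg
The repeats begin at positions 12, 41 and 63 of the GENCODE transcript, and the rest of its 328 bases held no other. Positions count from the GENCODE start at 52995621, whereas the RefSeq gene starts at 52995620, a base that the sequence shown lacks. GATC reads alike on both strands and was the only motif searched. At least 1 copy was found in the first 110 bases of 18.5% of 35116 RefSeq promoter sequences, and as many copies as in 7SK in 0.174% of them. The motif was chosen for its place in 7SK, and promoter DNA is unlike a transcript, so these shares are a description and no test. The transcript has no poly(A) tail of its own, and its longest run of A was 3 bases.

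After PSF silencing the 7SK RNA was higher and no protein-coding member passed the test. A gene was called when its p from the quasi-likelihood test of edgeR, adjusted by Benjamini-Hochberg over 19694 genes, was below 0.05. By that rule RN7SK was higher, as were 6.65% of all genes. Over both directions 1 of 10 members was called, against 14.9% of all genes. CDK9 and RN7SK were the 2 members with an unadjusted p below that value, and the Wald test of DESeq2 also called 1 member, RN7SK. The groups did not overlap in 3 of 10 members (CDK9, SUPT5H and RN7SK), against 34.4% of all genes, so neither count lies above the background. The median log2 fold change over the members was -0.01, and that over all genes tested was 0.01. An interval that includes 0 does not show that a level stayed the same.

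**Figure D1:**
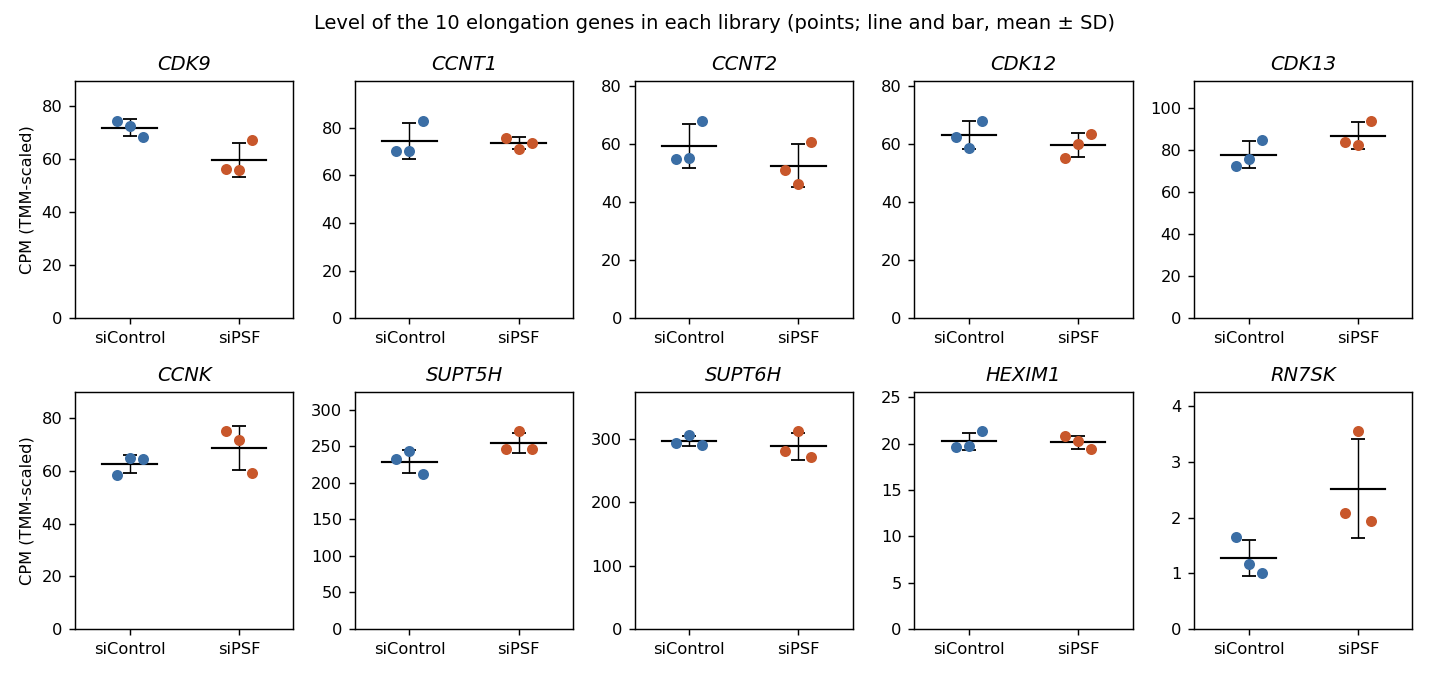
Level of each of the 10 genes in CPM (y axis, from 0) in the 3 siControl and 3 siPSF libraries (x axis); points are libraries, and the line and bar give the mean ± SD. RN7SK lies higher in every siPSF library than in any siControl library, CDK9 lies lower in every siPSF library, and most other genes share their range between groups.

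RN7SK was represented by few reads, with 200, 156 and 127 counts in siControl replicates 1 to 3 and 247, 375 and 191 counts in siPSF replicates 1 to 3. Scaled, these were 1.64, 1.17 and 1.01 CPM in siControl and 2.08, 3.55 and 1.94 CPM in siPSF. Every siPSF library lay above every siControl library, and siPSF replicate 2 was the highest of all. The mean rose from 1.27 ± 0.331 to 2.52 ± 0.894 CPM (SD over 3 libraries). This is a log2 fold change of 0.99, with a standard error of 0.26 and a 95% interval of 0.42 to 1.55 (edgeR's adjusted p = 0.0246). In linear terms 7SK stood at 198% of the siControl level (95% interval 134% to 293%). The call was lost without siControl replicate 2, without siControl replicate 3 and without siPSF replicate 2, with edgeR's adjusted p at 0.108, 0.116 and 0.0939 and log2 fold changes of 0.92, 0.84 and 0.66. Without any filter on low counts edgeR's adjusted p was 0.0511.

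The libraries were made from poly(A)-selected RNA, so RNAs without a poly(A) tail enter them only in part. Other RNAs of that kind were therefore set beside 7SK. Of 14 listed, 5 could be tested, and their log2 fold changes were all above 0, with a median of 0.59. RN7SL1 and RN7SL2, the RNA of the signal recognition particle, had log2 fold changes of 0.44 (edgeR's adjusted p = 0.178) and 0.59 (edgeR's adjusted p = 0.0703). RMRP and TERC, the RNAs of RNase MRP and telomerase, had values of 0.46 and 0.84 with edgeR's adjusted p-values of 0.624 and 0.326. RPPH1, the RNA of RNase P, rose from 5, 6 and 2 counts to 32, 46 and 13 counts (log2 fold change 3.0, 95% interval 1.80 to 4.2, edgeR's adjusted p = 0.0038). RPPH1 passed the filter on low counts only through its siPSF libraries, where it was higher. TERC, with 20, 14 and 3 counts in siControl and 15, 17 and 24 in siPSF, also needed its siPSF libraries to pass. The call of RPPH1 rests on that selection, as does the part of both RNAs in the median and in the shared direction. The summed level of the 5 RNAs was 5.62, 6.53 and 6.34 CPM in siControl and 6.33, 10.5 and 10.4 CPM in siPSF, and the groups overlapped. Per 100 counts of RN7SL1 and RN7SL2 together, the libraries held 31.0, 20.1 and 16.5 counts of RN7SK in siControl and 37.1, 38.2 and 19.8 in siPSF. On that scale, chosen after the values were seen, the groups overlapped and the log2 difference was 0.48 (exact permutation test, two-sided, p = 0.3). The part that recovery of such RNAs plays in the RN7SK result was not tested. A further limit is copies of the gene: 2 RN7SK pseudogenes, RN7SKP80 and RN7SKP175, were listed with at most 27 counts in any library.

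**Figure D2:**
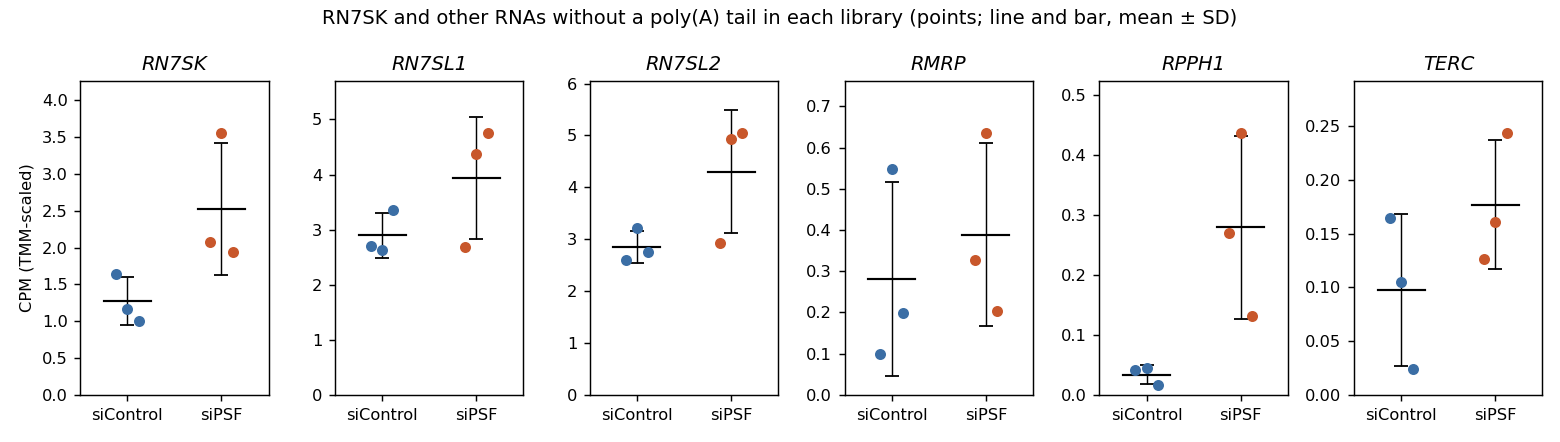
Level in CPM (y axis, from 0, scaled to each RNA) of RN7SK and 5 other RNAs without a poly(A) tail in each library; points are libraries, and the line and bar give the mean ± SD. RN7SK and RPPH1 are the RNAs whose groups do not overlap, and siPSF replicates 2 and 3 carry the higher RN7SL1 and RN7SL2 levels.

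Of the P-TEFb subunits, the kinase CDK9 (gene ID 1025, chromosome 9 from 127786034 to 127790792) came nearest to the threshold. It was at 74.7, 72.8 and 68.4 CPM in siControl and 56.3, 56.1 and 67.4 CPM in siPSF. The groups did not overlap, but siPSF replicate 3 lay close to the lowest siControl library. The log2 fold change was -0.26 (95% interval -0.47 to -0.06, edgeR's adjusted p = 0.0795). It passed without siPSF replicate 3 (log2 fold change -0.36, edgeR's adjusted p = 0.0138) and with library totals alone for scaling (-0.34, edgeR's adjusted p = 0.0290). It also passed with limma on FPKM (-0.34, adjusted p = 0.0235) or rescaled FPKM (-0.45, adjusted p = 0.00723). Relative to the median of all genes, CDK9 lay at -0.27 in the main fit, -0.27 with library totals and -0.29 on rescaled FPKM.

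The cyclin partners of CDK9 did not pass. CCNT1 (gene ID 904, chromosome 12 from 48688458 to 48716707), the main T-type cyclin of P-TEFb, was at 70.1, 70.4 and 83.1 CPM in siControl and 75.9, 71.0 and 73.8 CPM in siPSF. Its siPSF libraries lay inside the siControl range, with a log2 fold change of -0.02 (95% interval -0.21 to 0.18, edgeR's adjusted p = 0.916). CCNT2 (gene ID 905, chromosome 2 from 134918822 to 134959342), the alternative cyclin, was at 55.1, 55.2 and 68.2 CPM in siControl and 51.0, 46.3 and 60.7 CPM in siPSF. In CCNT2 replicate 3 was the highest library of each group, the groups overlapped, and the log2 fold change was -0.18 (95% interval -0.43 to 0.08, edgeR's adjusted p = 0.351).

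HEXIM1 (gene ID 10614, chromosome 17 from 45148475 to 45152099), the inhibitor that binds 7SK, is a gene of 1 exon. It was at 19.7, 19.7 and 21.3 CPM in siControl and 20.8, 20.3 and 19.4 CPM in siPSF. This was the smallest difference among the members, with means of 20.3 ± 0.941 and 20.2 ± 0.700 CPM (SD, n = 3 each). The log2 fold change was -0.01, and its 95% interval of -0.21 to 0.20 leaves room for levels from 86.4% to 115% of siControl (edgeR's adjusted p = 0.977). HEXIM1 and RN7SK act in the same complex, so their values stand side by side: HEXIM1 at 99.6% and RN7SK at 198% of the siControl level.

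**Figure D3:**
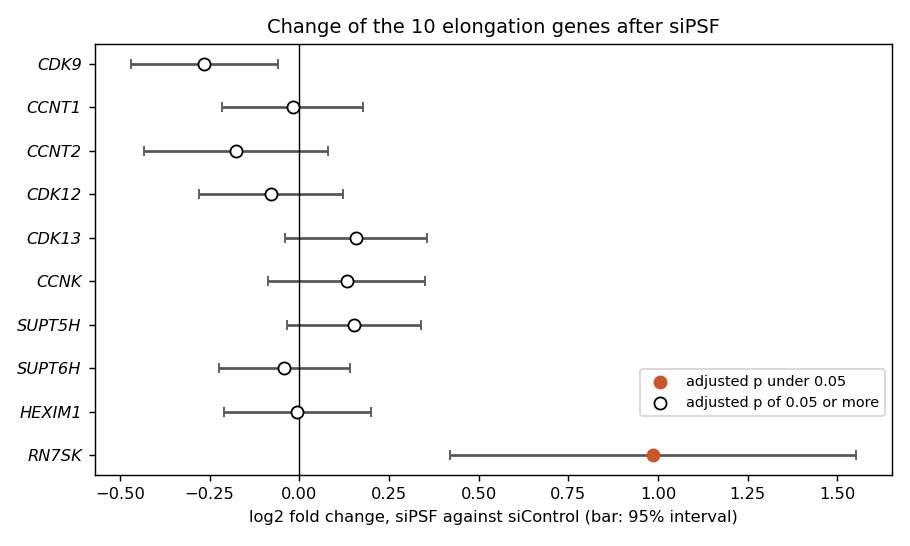
Log2 fold change of siPSF against siControl (x axis) for the 10 genes, with 95% intervals from edgeR's quasi-likelihood fit; filled points have an adjusted p under 0.05. RN7SK is the filled point at 0.99, CDK9 is the other gene whose interval does not reach 0, and the remaining 8 intervals cross it.

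CDK12 and CDK13, the kinases of the elongating polymerase, had estimates of opposite sign, and neither passed the test. CDK12 (gene ID 51755, chromosome 17 from 39461486 to 39567559) was at 62.3, 58.4 and 68.0 CPM in siControl and 55.3, 60.0 and 63.4 CPM in siPSF, with a log2 fold change of -0.08 (95% interval -0.28 to 0.12, edgeR's adjusted p = 0.610). CDK13 (gene ID 8621, chromosome 7 from 39950256 to 40099580) was at 72.4, 75.9 and 84.9 CPM in siControl and 83.9, 82.1 and 94.0 CPM in siPSF. Its log2 fold change was 0.16 (95% interval -0.04 to 0.36, edgeR's adjusted p = 0.274), but on rescaled FPKM limma gave -0.04. The siPSF libraries of CDK13 reached above the siControl libraries, but siPSF replicates 1 and 2 lay below siControl replicate 3. These are the longest genes among the members, at 106 kb and 149 kb.

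CCNK (gene ID 8812, chromosome 14 from 99481409 to 99512440), cyclin K, is shared by both kinases. It was at 58.6, 64.7 and 64.6 CPM in siControl and 75.0, 71.7 and 59.2 CPM in siPSF. The first 2 siPSF libraries lay above all siControl libraries and siPSF replicate 3 lay among them. The log2 fold change was 0.13 (95% interval -0.09 to 0.35, edgeR's adjusted p = 0.414), but on rescaled FPKM limma gave -0.10.

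The factors that travel with the polymerase were the most abundant members. SUPT5H (gene ID 6829, chromosome 19 from 39445582 to 39476670), the large subunit of DSIF, was at 232, 243 and 212 CPM in siControl and 246, 271 and 247 CPM in siPSF. All siPSF libraries lay above all siControl libraries, by a narrow margin, with a log2 fold change of 0.15 (95% interval -0.03 to 0.34, edgeR's adjusted p = 0.259), but on rescaled FPKM limma gave -0.04. SUPT6H (gene ID 6830, chromosome 17 from 28662205 to 28702679), which encodes SPT6, was at 295, 306 and 290 CPM in siControl and 281, 313 and 272 CPM in siPSF. Its siPSF libraries spread to either side of the siControl libraries, with a log2 fold change of -0.04 (95% interval -0.22 to 0.14, edgeR's adjusted p = 0.783). With limma on rescaled FPKM SUPT6H was called lower (-0.23, adjusted p = 0.0448), where the median of all genes lay at -0.16.

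Length-adjusted levels, from the deposited FPKM values, put SUPT5H first in siControl at 57.0 ± 2.74 FPKM and SUPT6H second at 45.6 ± 1.68 FPKM (SD, n = 3 each). CDK9 followed at 27.0 ± 0.661 FPKM and CCNK at 19.0 ± 1.01 FPKM. These first 4 ranges did not overlap with their neighbours. CCNT1 (10.3 ± 1.28 FPKM), CCNT2 (9.25 ± 1.43 FPKM), CDK13 (9.14 ± 1.26 FPKM) and CDK12 (7.67 ± 0.861 FPKM) overlapped each with the next, so their order lies within the spread. HEXIM1 stood at 5.21 ± 0.368 FPKM and RN7SK last at 3.55 ± 0.874 FPKM in these poly(A)-selected libraries. In siPSF, SUPT5H was at 60.2 ± 3.05 FPKM, CDK9 at 21.3 ± 2.2 FPKM and RN7SK at 6.69 ± 2.34 FPKM (SD, n = 3 each).

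Ratios of counts within a library do not depend on how libraries are scaled, and 6 were compared. The ratio of CDK12 to CDK13 was -0.22, -0.38 and -0.32 on the log2 scale in siControl and -0.60, -0.45 and -0.57 in siPSF. The siPSF libraries all lay lower, by 0.24 on average. SUPT6H to SUPT5H was 0.35, 0.33 and 0.46 in siControl and 0.19, 0.21 and 0.14 in siPSF, again without overlap and lower by 0.20 on average. RN7SK to HEXIM1 was -3.58, -4.08 and -4.40 in siControl and -3.32, -2.52 and -3.33 in siPSF, without overlap and 0.97 higher on average. For each of these 3 ratios the two-sided exact permutation test gave p = 0.1, the smallest value that 3 libraries against 3 allow, and 0.2 after Benjamini-Hochberg adjustment over the 6 ratios, so none could pass. The groups overlapped in HEXIM1 to CDK9 (difference 0.26, exact permutation p = 0.2), CCNK to CDK12 (0.20, exact permutation p = 0.4) and CCNT1 to CCNT2 (0.16, exact permutation p = 0.4). In each of these 3 ratios siPSF replicate 3 lay with or near the siControl libraries, apart from siPSF replicates 1 and 2.

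**Figure D4:**
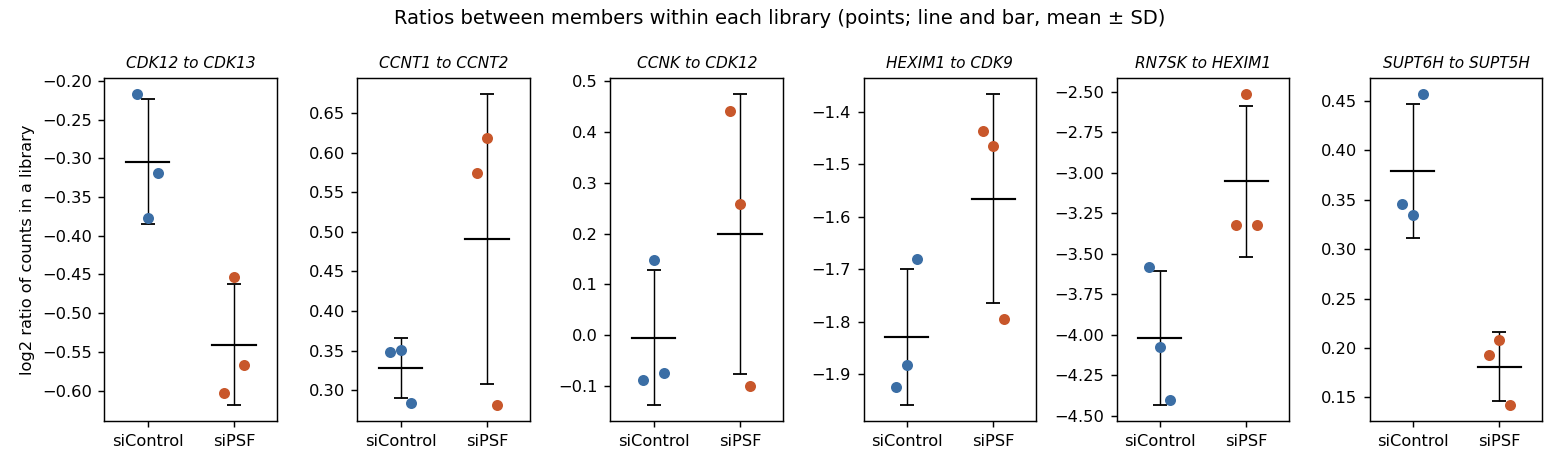
Log2 ratio of counts between pairs of members in each library (y axis, own scale in each panel); points are libraries, and the line and bar give the mean ± SD. The groups separate for CDK12 to CDK13, RN7SK to HEXIM1 and SUPT6H to SUPT5H, and siPSF replicate 3 lies apart from the other siPSF libraries for CCNT1 to CCNT2, CCNK to CDK12 and HEXIM1 to CDK9.

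Outside the members, 87 genes of related complexes were tested in 11 lists, and edgeR called 14 of them, 8 higher and 6 lower. This share of 16.1% stands beside 14.9% of all genes. Of the calls 57.1% were higher, against 23.1% with library totals alone for scaling, 30.0% with limma on FPKM and 5.56% with limma on rescaled FPKM. The limma fits held 82 of the 87 genes. The partners closest to the members did not pass. LARP7, the protein that protects the end of 7SK, was at 26.2 ± 2.26 and 31.0 ± 2.46 CPM (SD, n = 3 each; log2 fold change 0.24, edgeR's adjusted p = 0.134). MEPCE, the 7SK capping enzyme, and HEXIM2, the paralogue of HEXIM1, had log2 fold changes of -0.04 and 0.01 with edgeR's adjusted p-values of 0.810 and 0.966. SUPT4H1, the small subunit of DSIF, and IWS1, a partner of SPT6, had log2 fold changes of 0.12 and 0.04 with edgeR's adjusted p-values of 0.367 and 0.825. The 4 subunits of the pausing factor NELF had log2 fold changes from -0.08 (NELFE, edgeR's adjusted p = 0.605) to 0.22, and none of their adjusted p-values was below 0.134.

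The super elongation complex is a P-TEFb-containing assembly built on AFF scaffolds, and its list of 13 genes also took in ICE1, ICE2 and ZC3H8 of the little elongation complex. Of these 13 genes 1 was called lower and 0 higher, against 8.27% and 6.65% of all genes. The called gene was AFF3, a scaffold gene of 597 kb, which fell from 25.4, 29.6 and 34.8 CPM in siControl to 12.7, 11.7 and 11.6 CPM in siPSF. The log2 fold change of AFF3 was -1.32 (SE 0.12, edgeR's adjusted p = 5.6e-05), and the call held in each of the 6 fits that left out 1 library. The other 12 genes had edgeR's adjusted p-values over the threshold, and the list's median was 0.05. The groups did not overlap in 6 of the 13 genes, against 34.4% of all genes. Among them were AFF4, lower (-0.32, edgeR's adjusted p = 0.0688), and ICE2, higher (0.32, edgeR's adjusted p = 0.0588).

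Of the 13 RNA polymerase II subunit genes, edgeR called 1 lower and 1 higher, against 8.27% and 6.65% of all genes. The list median was 0.02. POLR2A, the catalytic subunit whose tail CDK9, CDK12 and CDK13 phosphorylate, fell from 433, 490 and 465 CPM to 344, 400 and 339 CPM (log2 fold change -0.36, edgeR's adjusted p = 0.0226). POLR2K, a small subunit shared with the other polymerases, rose from 69.7, 66.8 and 70.7 CPM to 94.9, 84.7 and 90.1 CPM (log2 fold change 0.38, edgeR's adjusted p = 0.00842). In the PAF1 complex 1 of 6 genes was called higher, CTR9 (0.36, edgeR's adjusted p = 0.0317), against 6.65% of all genes. Among TFIIS, elongin and FACT it was 1 of 9, ELOC, a subunit of elongin (0.27, edgeR's adjusted p = 0.0435). The calls of CTR9 and ELOC were lost with library totals alone and in both limma fits, and that of POLR2K with limma on rescaled FPKM. Of 13 phosphatases and readers of the polymerase tail, 1 was called, against 14.9% of all genes. The called gene was the phosphatase SSU72, which rose from 75.4 ± 5.00 to 99.7 ± 1.99 CPM (SD, n = 3 each; log2 fold change 0.40, edgeR's adjusted p = 0.00631).

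The other transcriptional kinases and their cyclins had 3 of 6 genes called higher and 0 lower, against 6.65% of all genes called higher, with a list median of 0.25. CCNC, the cyclin of the Mediator kinase, rose from 25.3 ± 2.93 to 35.5 ± 5.90 CPM (SD, n = 3 each; log2 fold change 0.49, edgeR's adjusted p = 0.0245). CDK7 and CCNH, the kinase and cyclin of TFIIH that act on the polymerase before P-TEFb, had log2 fold changes of 0.31 each, with edgeR's adjusted p-values of 0.0496 and 0.0403. All 3 calls were lost both on rescaled FPKM in limma and under library totals alone, which called 1 of 82 and 3 of 87 related genes higher and 17 and 10 lower. CCNC and CDK7 also lost the call with limma on FPKM as deposited, and CDK7 with DESeq2 size factors and without a filter on low counts.

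DNA repair genes whose expression is known to depend on CDK12 were set beside the kinase. Of 8 genes, 4 were called lower and 0 higher, against 8.27% of all genes called lower, with a list median of -0.30. BRCA2 fell from 31.8 ± 4.32 to 19.5 ± 1.55 CPM (SD, n = 3 each; log2 fold change -0.70, edgeR's adjusted p = 0.0018), and BRCA1 had a log2 fold change of -0.39 (edgeR's adjusted p = 0.0153). FANCI was also among the 4, at -0.27 (edgeR's adjusted p = 0.0423). ATM and ATR, in the same list, had log2 fold changes of -0.02 and 0.05, with edgeR's adjusted p-values of 0.929 and 0.789. CDK12 itself had a log2 fold change of -0.08 in the same libraries, and CCNK one of 0.13. The part of CDK12 in the levels of these repair genes was not tested.

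The calls among related genes depended on single libraries. Of the 14 called genes, 5 kept the call without siControl replicate 2, where those that lost it included CCNC, CCNH, CDK7, POLR2A, POLR2K, ELOC, CTR9 and FANCI, with edgeR's adjusted p up to 0.212. Without siPSF replicate 1, 6 kept it, and those that lost it included CCNH, CDK7, POLR2A, POLR2K, ELOC, CTR9 and FANCI (edgeR's adjusted p up to 0.149). Without siControl replicate 1, CCNH, ELOC, CTR9 and FANCI lost the call (edgeR's adjusted p up to 0.119), and without siControl replicate 3, CDK7, POLR2A, ELOC and FANCI did (up to 0.0998). Without siPSF replicate 2, BRCA1, CCNH, CDK7 and FANCI lost it (edgeR's adjusted p up to 0.101), and without siPSF replicate 3, CCNH, CDK7, ELOC, CTR9 and FANCI did (up to 0.1). AFF3, SSU72, BRCA2 and RPPH1 kept the call in all 6 of these fits. For RPPH1 this is limited, because it passed the filter on low counts only through its siPSF libraries. Only 5 of the 7 other alternative fits held RPPH1, whereas all 7 held AFF3, SSU72 and BRCA2.

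**Figure D5:**
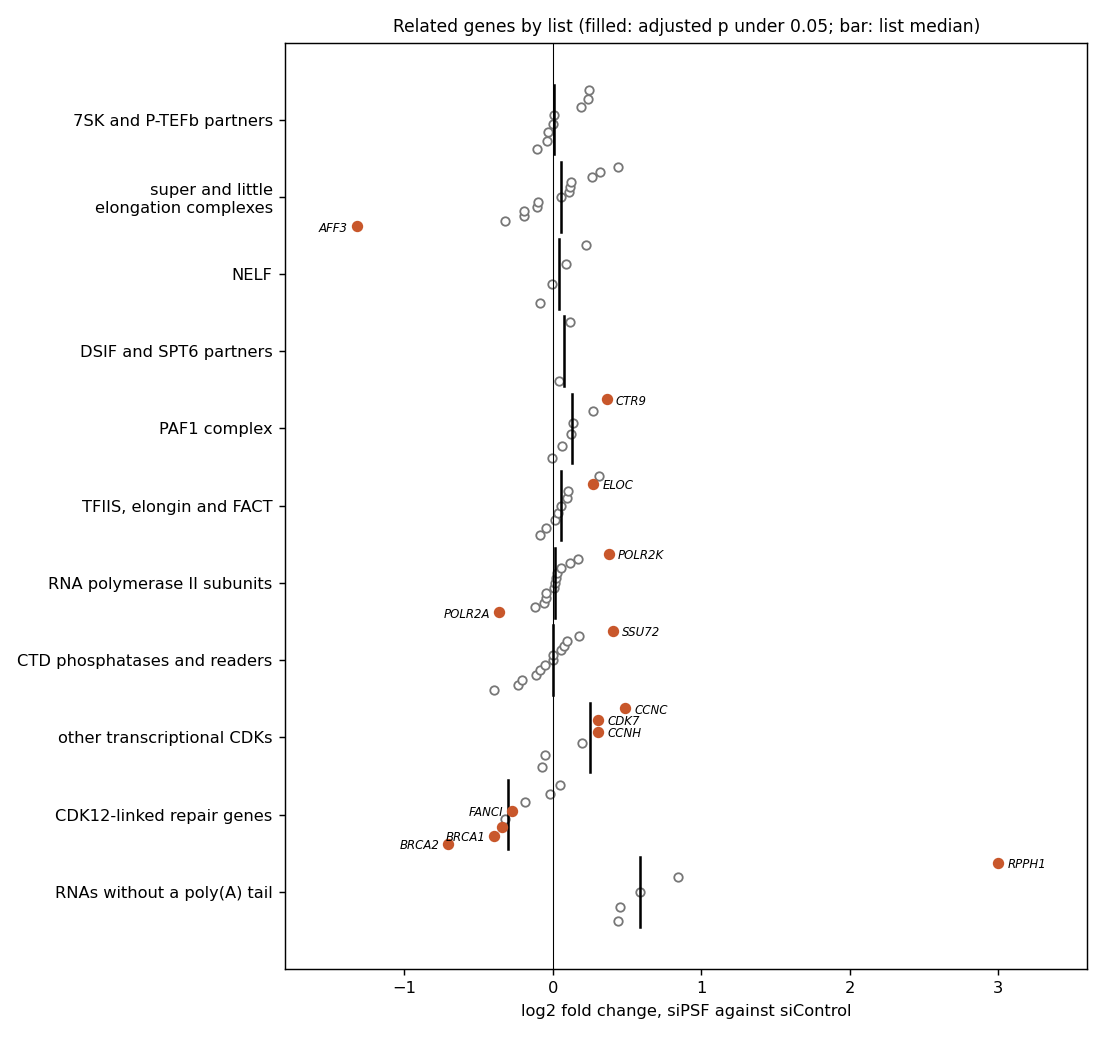
Log2 fold change of siPSF against siControl (x axis) for 87 genes related to the members, by list (y axis, genes within a list ordered by value), where filled points have an adjusted p under 0.05 in edgeR, most of them with their symbol, and vertical bars give list medians. AFF3 lies at -1.32, the repair genes lie mostly left of 0, and RNAs lacking a poly(A) tail lie to the right.

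Over 14678 genes whose mean reached 1 CPM, the profiles over the 6 libraries most like that of RN7SK (Pearson's r of log2 CPM, as a description) were those of C8orf49 (r = 0.992), MAGEC1 (r = 0.991) and BECN1 (r = 0.989). Their changes were smaller than that of RN7SK, with log2 fold changes of 0.32, 0.13 and 0.08 and edgeR's adjusted p-values of 0.187, 0.353 and 0.564. The 6 points of each profile share their libraries, depth and scaling.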

How the data were processed

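For the deposited read counts, the authors sequenced poly(A)-selected RNA as 50 bp paired ends, removed rRNA reads with Bowtie 2, mapped to hg38 with TopHat and counted tags on RefSeq genes. The submitters' processing notes instead name Trimmomatic, HISAT2 2.1.0 and StringTie 2.1.3b with GRCh38. The authors also deposited FPKM values (called RPKM in the paper), fragments scaled by transcript length and sequencing depth. Whether strand was used in counting is not given in the sources used here, so CCNT2, CDK12, CCNK, SUPT6H and HEXIM1, which overlap genes on the opposite strand, may hold reads of these. The smallest count in the table is 1, and genes with 0 in any library are not analysed here.

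Counts were filtered with filterByExpr (19694 genes left), scaled by TMM and tested with edgeR 4.0.16 by the quasi-likelihood test without a replicate block, and p-values were adjusted by Benjamini-Hochberg across the filtered genes with a threshold of 0.05. The members and lists were chosen with earlier results of these data known. Alternatives were DESeq2 1.42.0, DESeq2 size factors, library totals alone, no filter, a replicate block, leaving out each library, and limma 3.58.1 on log2(FPKM + 0.5) for genes of a mean of at least 0.5, as given and rescaled to the same sum. Software was R 4.3.3 and Python 3.11.15 with scipy 1.17.1, numpy 2.4.6 and pandas 2.3.3. The edgeR step was first tested on simulated counts with known changes. Genes named are the members, SFPQ, and the partners SUPT4H1, HEXIM2, LARP7, MEPCE, IWS1 and NELFE. Also named are up to 3 called genes per list with the smallest p, and the 3 genes most like the member with the smallest p. FANCI, ATM, ATR, AFF4, RMRP, TERC, RN7SL1, RN7SL2, ICE1, ICE2, ZC3H8 and the 2 RN7SK pseudogenes were named after their values were seen. The cell type markers were named as a list, to check the cell line. Some genes that the rule names are not reported here. Gene positions are from RefSeq on GRCh38.p14, and the 7SK sequence and exon numbers from GENCODE 44 on GRCh38.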

Additional observations from a re-analysis of the deposited data

How the results depend on the processing

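RN7SK stayed above 0 in every alternative run, with log2 fold changes from 0.66 to 1.21 without each library in turn; edgeR's call was lost without a filter on low counts (0.98), and the log2 difference was 0.48 relative to RN7SL1 and RN7SL2, where 3 libraries against 3 cannot pass. Leaving out each library in turn gave CDK9 from -0.36 to -0.22, CCNT1 from -0.0684 to 0.0626, HEXIM1 from -0.0340 to 0.0296, 0 to 2 called members, 5 to 13 called related genes and 1500 to 3140 called genes in all. CDK9 passed with library totals alone (-0.34), limma on FPKM (-0.34) and limma on rescaled FPKM (-0.45). In these 3 settings the median of all genes was -0.07, -0.06 and -0.16. Relative to the median, CDK9 lay at -0.27 with library totals and -0.29 on rescaled FPKM, against -0.27 in the main analysis. Rescaled FPKM also turned CDK13 (-0.0351), CCNK (-0.10) and SUPT5H (-0.0366) and brought SUPT6H past the threshold (-0.23); there the median of all genes was -0.16, and relative to it CDK13, CCNK and SUPT5H lay at 0.13, 0.06 and 0.12. Of 10 members, 2 were called with library totals alone, 2 with limma on FPKM and 3 on rescaled FPKM. Over all genes these settings called 3105 of 19694, 2518 of 14830 and 3872 of 14827. Without a filter edgeR called 0 members, where 2 had an unadjusted p under 0.05, and 2556 of 21301 genes. DESeq2's Wald test called 1 member and 3644 of 21301 genes. Of all genes called, 44.6% were higher in the main analysis, 26.8% with library totals alone, 29.2% with limma on FPKM and 12% on rescaled FPKM.

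Same-numbered libraries did not deviate together (r = -0.02, 0.06 and 0.06), and 2 of 6 libraries correlated best with their own number. With the replicate number as a block, 3029 genes in all, 1 member and 18 related genes were called, against 2938, 1 and 14. The 6 ratios kept their direction in every alternative run, although for ratios the replicate block returns the main difference by construction. RN7SK rests on 127 to 375 counts per library, which limits its precision.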
